A study of Drosophila melanogaster with 6 samples.

Results

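Rhodopsin is a membrane protein that threads through the membrane of the endoplasmic reticulum (ER) several times and must fold there before it can move to the light-sensing rhabdomere. Calnexins and calreticulin are lectin chaperones that hold newly made glycoproteins by their sugar chains until they are folded, ninaA is a photoreceptor cyclophilin that the main rhodopsin needs to leave the ER, and the ER membrane protein complex (EMC) helps proteins with several membrane spans enter the membrane. In flies, loss of Cnx99A, of ninaA or of EMC subunits lowers the amount of the main rhodopsin. The chromophore that rhodopsin binds is made from dietary carotenoids, so a diet without them leaves the eye short of both chromophore and mature pigment.

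The 10 genes described here are ninaA, the calnexin genes Cnx99A and Cnx14D, the calreticulin gene Calr, and the EMC subunit genes EMC1, EMC3, EMC5, EMC6, EMC7 and EMC8-9, taken by FlyBase identifier from the 17509 genes of the count tables. The remaining 4 EMC genes of the fly, EMC2A, EMC2B, EMC4 and EMC10, were read beside them. RNA was taken from whole heads of wild type Canton S females of Drosophila melanogaster, 4 days old, kept on minimal food at 25 °C and 50% humidity. The food held no beta-carotene for 3 vitamin A deprived libraries and held it for 3 vitamin A replete libraries, and diet is the difference that the labels give, apart from the library codes. Whole heads mix eyes with brain, fat body, muscle and cuticle, so in these bulk values fewer cells of a type and less RNA per cell cannot be told apart, and no level can be assigned to photoreceptors.

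Total counts were 21344395 to 24165187 in the deprived and 15668307 to 17935321 in the replete libraries. Nothing in the labels says that libraries of 1 diet are independent groups of flies, and the p-values cover just the spread among these libraries, which may be technical. The eye was present in every library, with the photoreceptor marker ninaE at 11175 to 13221 CPM (counts scaled by library size, with TMM correction for composition) in deprived and 10478 to 12214 CPM in replete heads. The summed level of 7 photoreceptor markers was 19081 to 21797 CPM in deprived and 19615 to 20614 CPM in replete heads. Most of that sum was ninaE, so it says little about the other markers. None of these 7 was called, 4 had a fold change above 1, and Arr1, norpA and inaD were lower by estimate at an unadjusted edgeR p under 0.05, as were 2.41% of all tested genes. Arr1, an arrestin gene, was at 1463 ± 236 against 2200 ± 185 CPM, without overlap (edgeR, BH-adjusted p = 0.0874). Germline transcripts (osk, vas, otu and aub summed) were uneven, at 11.9 to 41.5 CPM in deprived and 0.492 to 79.2 CPM in replete heads, and the summed level of 5 muscle markers was 3346 to 4557 CPM against 3687 to 5855 CPM. All 5 muscle markers had a fold change below 1, beside 5671 of 10896 over all tested genes. Their median log2 fold change was -0.33, and 0 were called. TpnC41C and up were lower by estimate at an unadjusted edgeR p under 0.05, as were 2.41% of all tested genes. Library codes in the labels differ between the diets, and a batch that followed them cannot be told apart from diet.

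Of the 10 genes, Cnx99A rose in vitamin A deprived heads, 8 did not pass the test, and ninaA could not be measured. Deprived and replete libraries were compared with the quasi-likelihood test of edgeR over 10896 genes with enough counts, with a call where the p-value adjusted after Benjamini and Hochberg (BH) was under 0.05. That test called 0.294% of all tested genes higher and 0.0367% lower in deprived heads, or 0.33% in all. Of the 9 genes here that passed the filter on low counts, 1 was called higher and 0 lower, and 1 had an unadjusted p under 0.05, as had 5.13% of all tested genes. DESeq2, which called 0.766% of its genes, and limma-voom, which called 0.275%, also called Cnx99A and none of the other 8. The median log2 fold change of the 9 was -0.0097, beside -0.0089 over all tested genes.

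**Figure D1:**
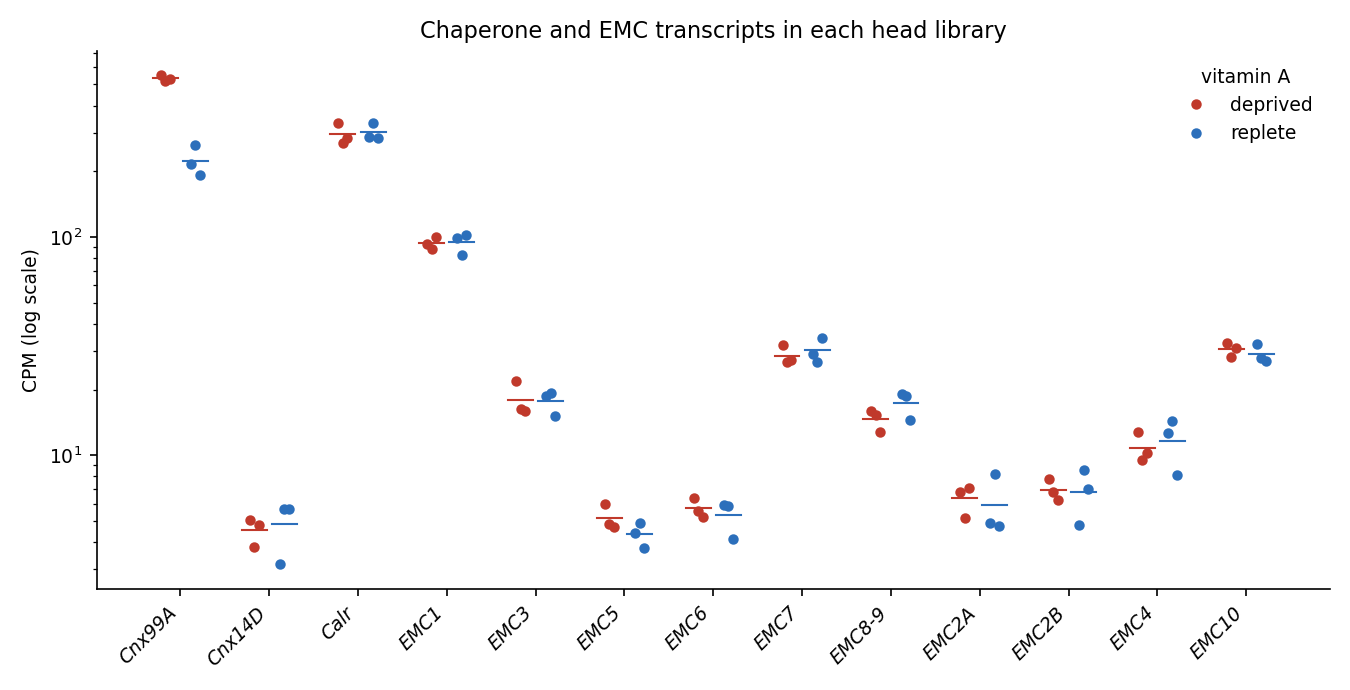
Level of each measured chaperone and EMC gene in every head library, in CPM on a log scale, with points for libraries and bars for the mean of 3. The Cnx99A points of the deprived libraries, 519 to 551 CPM, lie above all replete ones, 193 to 263 CPM, and for the other 12 genes the points of the diets overlap. The gene ninaA, with 0 counts, cannot be drawn on this axis.

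Calnexin 99A (Cnx99A, FBgn0015622) is the calnexin of the fly whose loss impairs rhodopsin maturation and calcium handling in photoreceptors. The Ensembl annotation of assembly BDGP6.54, matched by identifier, places it on the minus strand of chromosome 3R at 29315254 to 29319644, and none of its 2795 exon bases lie in exons of another gene. It was counted 12606, 11365 and 12730 times in deprived libraries 1, 2 and 3 and 3492, 4652 and 3135 times in replete libraries 1, 2 and 3. After scaling, its level was 551, 519 and 532 CPM in the deprived and 217, 263 and 193 CPM in the replete libraries. The lowest deprived library was thus far above the highest replete one, and the groups did not overlap. Such separation, in either direction, was seen for 1 of these 9 genes and for 10.9% of all tested genes.

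Cnx99A rose in deprived heads to a mean of 534 ± 16.1 CPM, against 224 ± 35.5 CPM in replete heads (SD, n = 3 each), a 2.38-fold change with a 95% interval of 2.01 to 2.82 (edgeR, BH-adjusted p = 0.000182). By p-value it stood at place 6 among all tested genes. By fold it stood lower, at place 78 in the order from the highest fold to the lowest. It ranked 822 of 10896 genes by CPM in replete heads and 248 in deprived heads. Replete libraries scattered more around their mean than deprived ones, with a coefficient of variation of 15.8% against 3.01%.

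**Figure D2:**
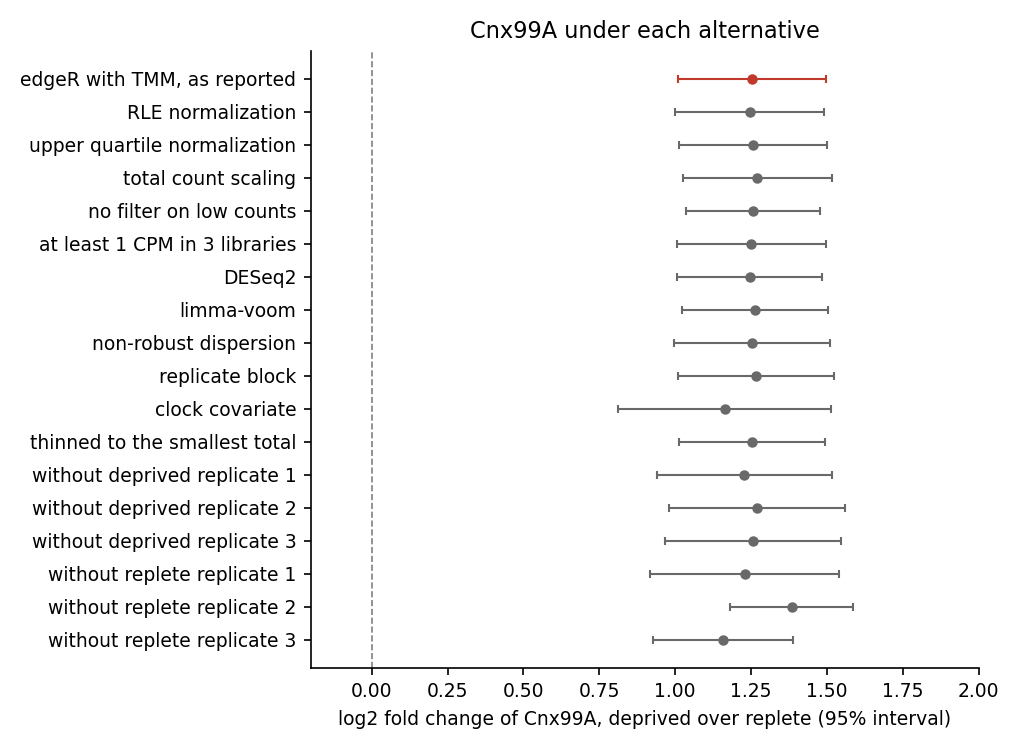
Log2 fold change of Cnx99A, deprived over replete, as reported (red) and under 17 alternatives (grey), with 95% intervals. All estimates lie between 1.16 and 1.38 and no interval reaches 0.

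The rise of Cnx99A was called under each of the 17 alternatives run, with estimates of 2.23-fold to 2.61-fold. The widest interval came with a covariate made of clock genes, at a log2 fold change of 1.16 with a 95% interval of 0.81 to 1.51 (edgeR, BH-adjusted p = 0.0148, the highest of the 17). That covariate was 1.65 to 2.35 in deprived and -1.02 to 1.803 in replete libraries, so it moved in part with diet. Among whole lists of cell type markers, only the 5 neuronal genes had summed levels that did not overlap between diets, at 3842 to 4063 against 3771 to 3820 CPM. Of 6 fat body markers, the larval storage protein gene Lsp2 was called higher, while the summed level of that list was 113755 to 141476 CPM in deprived and 114472 to 133367 CPM in replete heads. The photoreceptor and muscle markers that were lower by estimate are given above. The part of these shifts in the Cnx99A result was not tested.

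The second calnexin gene, Cnx14D (FBgn0264077, chromosome X), was the least abundant of the measured genes per length of exon. Its level was 5.03, 3.79 and 4.76 CPM in the deprived and 3.16, 5.65 and 5.66 CPM in the replete libraries. The diets overlapped, and the fold change was 0.939 with a 95% interval of 0.599 to 1.47 (edgeR, BH-adjusted p = 0.999). The interval leaves out a change as large as that of Cnx99A but is wide, and the gene was counted 555 times over all libraries.

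Calreticulin (Calr, FBgn0005585, chromosome 3R) is the soluble relative of calnexin inside the ER and also binds calcium. Its level was 332, 269 and 284 CPM in the deprived and 288, 332 and 285 CPM in the replete libraries. The replete range lay within the deprived one, though the deprived libraries at 269 and 284 CPM were below every replete library. The fold change was 0.978 with a 95% interval of 0.837 to 1.14 (edgeR, BH-adjusted p = 0.999).

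The lectin chaperones Calr and Cnx99A had a clear order of level in replete heads and no clear order in deprived heads. Per kilobase of exon, Calr was at 172, 198 and 170 CPM and Cnx99A at 77.5, 94.0 and 69.0 CPM per kb in replete libraries 1, 2 and 3. In deprived libraries 1, 2 and 3 Calr was at 198, 160 and 170 CPM per kb and Cnx99A at 197, 186 and 190 CPM per kb. Calr thus stood above Cnx99A in every replete library, and in deprived heads their ranges overlapped.

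Counted within each library, which needs no scaling between libraries, there were 1.66, 1.93 and 1.87 Cnx99A reads per Calr read in deprived and 0.752, 0.792 and 0.676 in replete libraries. The ratio was 2.46-fold higher in deprived heads, higher in 3 of 3 libraries than in any replete one, with p = 0.1 in a two-sided exact permutation test, the smallest p that 3 against 3 libraries allow. Set against ninaE, the gene of the main rhodopsin, there were 0.0417, 0.0465 and 0.0472 Cnx99A reads per ninaE read in deprived and 0.0205, 0.0215 and 0.0184 in replete libraries. That ratio was 2.24-fold higher, again with exact permutation p = 0.1, and both had an adjusted exact p of 0.1 over the 2 ratios tested.

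**Figure D3:**
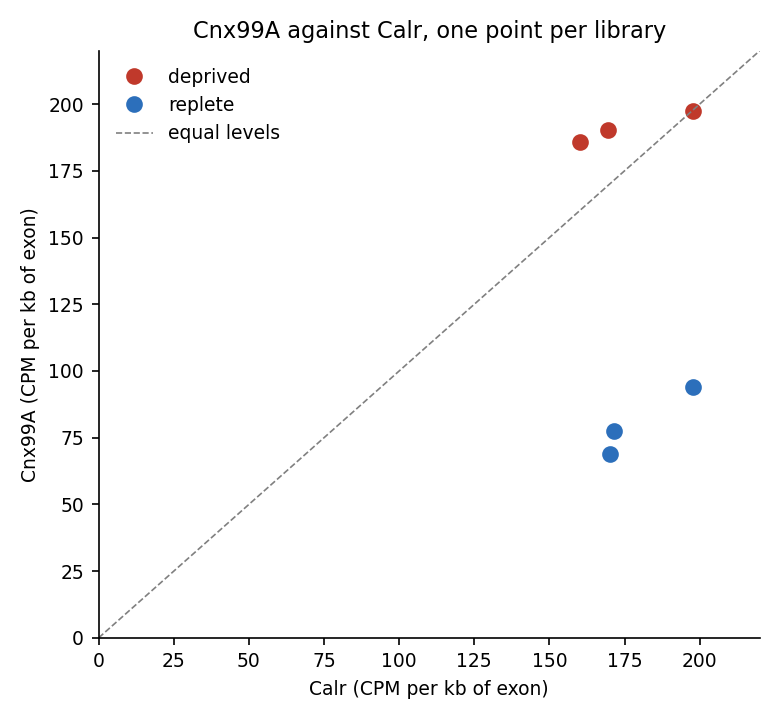
Cnx99A against Calr in CPM per kilobase of exon, one point per library, with a dashed line at equal levels. The 3 replete libraries lie far below the line and the 3 deprived ones lie on or above it, at about the same Calr level.

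The cyclophilin gene ninaA (FBgn0002936), needed in photoreceptors for the main rhodopsin and that of the ocelli, had a count of 0 in all 6 libraries. Its 871 exon bases, on the plus strand of chromosome 2L at 877302 to 878270, all lie inside exons of CG15824 on the opposite strand. The same held for every other gene placed like it. Of 379 protein-coding genes whose exon bases all lie in exons of other genes, 379 had 0 counts in all libraries, against 1080 of 9347 genes (11.6%) that share no exon base. The 65 genes that, like ninaA, are covered only from the opposite strand were all at 0.

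Reads on bases that genes share, on either strand, therefore do not appear to have been given to either gene in these tables. The 0 of ninaA is not a level, and no upper limit was derived from it. CG15824 was counted 34, 44 and 67 times in deprived and 25, 68 and 34 times in replete libraries, from the 6201 exon bases it does not share with ninaA. The planned ratio of ninaA to ninaE could not be formed.

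**Figure D4:**
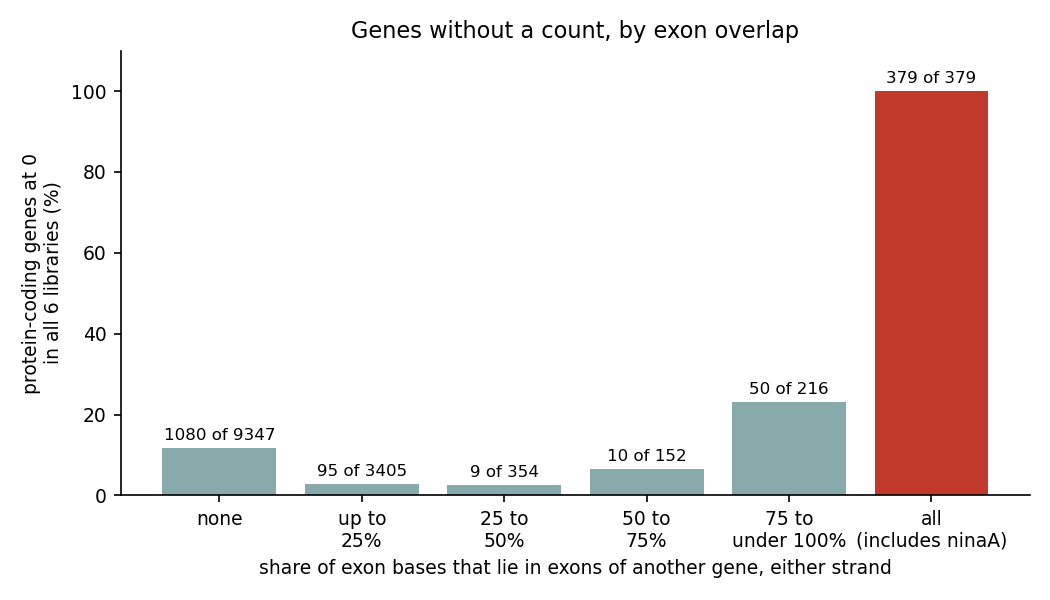
Percent of protein-coding genes with 0 counts in all 6 libraries, by the share of their exon bases that lie in exons of another gene on either strand; the numbers of genes stand above the bars. The bar for genes without an exon base of their own, which include ninaA, is at 100%, and the bars for other genes are at 2.54% to 23.1%.

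Another rhodopsin chaperone gene, Xport-A, which acts on the TRP channel and the main rhodopsin, was also at 0. Its 949 exon bases all lie in exons of Xport-B, which shares its transcript. Xport-B was counted 30, 37 and 37 times in deprived and 21, 25 and 22 times in replete libraries, from 80 exon bases of its own. At 1.52 ± 0.191 against 1.36 ± 0.0546 CPM it did not pass (edgeR, BH-adjusted p = 0.999).

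The 6 EMC genes of the set did not pass the test in either direction. In human and yeast structures, EMC1, EMC7 and EMC10 carry much of the part inside the ER, EMC3, EMC5 and EMC6 lie in the membrane with EMC4, and EMC2 with EMC8 or EMC9 forms the part in the cytosol. Fold changes of the 6 ran from 0.843 to 1.19, 3 above and 3 below 1, with a median log2 fold change of 0.0065. With the other 4 subunits the median was 0.027, 6 of 10 genes were above 1, and 0 had an unadjusted p under 0.05 (edgeR, 5.13% over all tested genes). Summed over the 10 genes, EMC transcripts were at 235, 207 and 220 CPM in the deprived and 230, 217 and 221 CPM in the replete libraries.

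EMC1 (FBgn0037530, chromosome 3R) was the most abundant in CPM, at 92.9, 88.4 and 99.9 in the deprived and 98.8, 82.3 and 102 CPM in the replete libraries. Its fold change was 0.993 with a 95% interval of 0.848 to 1.16 (edgeR, BH-adjusted p = 0.999), the narrowest interval among the 6. EMC7 (FBgn0034066, chromosome 2R) was at 32.1, 26.6 and 27.2 CPM in the deprived and 29.1, 26.9 and 34.6 CPM in the replete libraries. For EMC7 the interval of the fold change was 0.768 to 1.17. In both genes the replete range enclosed or nearly enclosed the deprived one.

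Of the membrane subunits, EMC3 (FBgn0032292, chromosome 2L), which with EMC6 forms the insertase core in human cells, was at 21.9, 16.2 and 15.9 CPM in the deprived and 18.6, 19.4 and 15.1 CPM in the replete libraries. EMC6 (FBgn0039259, chromosome 3R) was at 6.39, 5.53 and 5.22 CPM in the deprived and 5.89, 5.87 and 4.12 CPM in the replete libraries. EMC5 (FBgn0032732, chromosome 2L) was at 5.99, 4.84 and 4.68 CPM in the deprived and 4.40, 4.91 and 3.75 CPM in the replete libraries. Deprived library 1 was the highest of all 6 for these 3 genes, and the diets overlapped for each. The intervals of their fold changes were 0.780 to 1.32 for EMC3, 0.737 to 1.58 for EMC6 and 0.801 to 1.76 for EMC5. Changes within these intervals are not excluded.

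EMC8-9 (FBgn0034791, chromosome 2R), the fly counterpart of both human EMC8 and EMC9, had the lowest fold change of the set. It was at 15.9, 15.3 and 12.8 CPM in the deprived and 19.0, 18.7 and 14.5 CPM in the replete libraries. Replete library 3 lay below deprived libraries 1 and 2, so the diets overlapped. The fold change was 0.843 with a 95% interval of 0.652 to 1.09 (edgeR, BH-adjusted p = 0.999). Of its 888 exon bases, 115 lie in exons of PIP5K59B on the opposite strand, and it was the EMC gene of the set with the most shared bases.

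Among the EMC genes outside the set, EMC10 was at 30.7 ± 2.40 against 29.1 ± 2.75 CPM and EMC4 at 10.8 ± 1.75 against 11.7 ± 3.18 CPM in deprived and replete heads (SD, n = 3 each). EMC2A and EMC2B, neighbours on the minus strand of chromosome 3R with 2663 bases between them, both encode the EMC2 subunit. EMC2A was at 6.33 ± 1.02 against 5.94 ± 1.95 CPM and EMC2B at 6.93 ± 0.764 against 6.77 ± 1.89 CPM. Of the 957 exon bases of EMC4, 361 lie in exons of CG33170 on the opposite strand, more than in any other EMC gene. None of the 4 passed (edgeR, BH-adjusted p = 0.999 for each). The copies may share reads, and how reads that map to several places were treated is not given in the sources used here, so their separate values are uncertain.

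**Figure D5:**
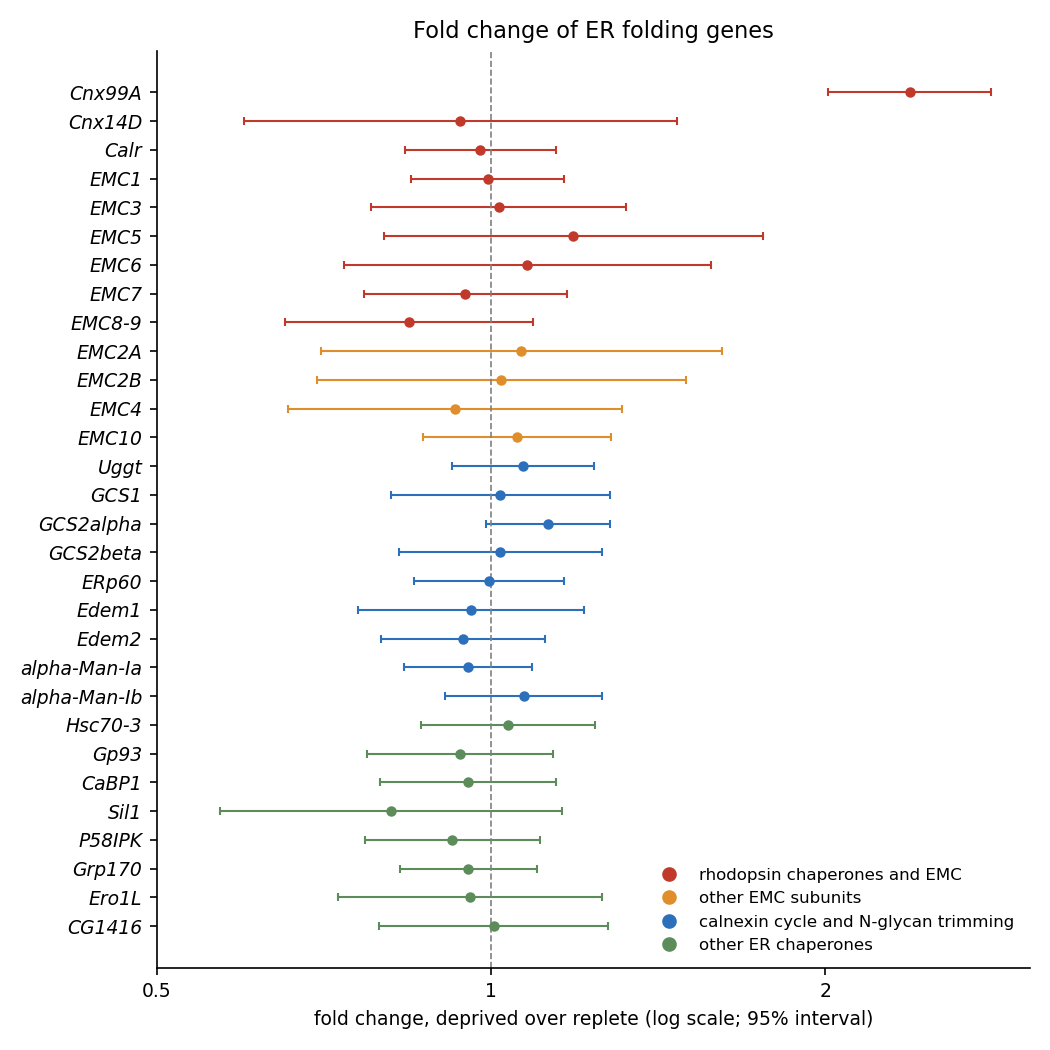
Fold change, deprived over replete, with its 95% interval for the 9 tested genes of the set (red), the other EMC genes (orange), genes of the calnexin cycle (blue) and other ER chaperones (green), on a log axis. The interval of Cnx99A, 2.01 to 2.82, lies above that of every other gene drawn.

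The depth behind these values differed by gene. Over the 6 libraries EMC1 was counted 11163 times, EMC7 3475, EMC3 2124 and EMC8-9 1878 times, and the short genes EMC6 and EMC5 only 658 and 574 times. Shared exon bases, whose reads may be missing from the counts, numbered 31 in EMC1, 64 in EMC5, 10 in EMC6 and 9 in EMC7, while EMC3, Calr, Cnx99A and Cnx14D had 0. The genes with the most counts, Cnx99A with 47980, Calr with 35427 and EMC1, also had the narrowest intervals of log2 fold change.

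The highest upper bound among the other 12 chaperone and EMC genes was 1.76, for EMC5, and lay below the lower bound of 2.01 for Cnx99A. The difference between Cnx99A and single EMC genes was not tested beyond these intervals. The span of levels within the complex was wide. Per kilobase of exon in replete heads, EMC7 at 32.8 ± 4.30, EMC1 at 28.7 ± 3.22 and EMC10 at 28.2 ± 2.66 CPM per kb formed the upper group, with library ranges that overlapped from each gene to the next. EMC8-9 at 19.6 ± 2.86 and EMC3 at 18.4 ± 2.34 CPM per kb followed, overlapping each other and no gene above.

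EMC4, EMC6 and EMC5 came next at 12.2 ± 3.33, 10.8 ± 2.08 and 8.85 ± 1.18 CPM per kb, again with overlapping ranges. EMC2B was at 5.57 ± 1.55 and EMC2A at 4.83 ± 1.58 CPM per kb, and the sum of these copies was 10.4 ± 2.96 CPM per kb. Over all exon bases the same steps were seen in deprived heads, with Cnx99A and Calr above all EMC genes and Cnx14D below them. The place of EMC4 depends on which bases are counted. Over the 596 exon bases it does not share, a length chosen after seeing the data, EMC4 was at 19.6 ± 5.34 CPM per kb in replete heads, and its range overlapped those of EMC8-9 at 22.5 ± 3.29 and of EMC3 at 18.4 ± 2.34 CPM per kb. In deprived heads, on the same bases, EMC4 was at 18.2 ± 2.93 CPM per kb and again overlapped EMC3. EMC5 and EMC6, with 492 and 489 exon bases, are the shortest EMC genes, while EMC2A and EMC2B, at the lowest levels of the EMC genes, have 1230 and 1216. Whether transcript length set part of the order was not tested.

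The libraries of a diet differed in how often they held the highest or lowest EMC value, counts that were chosen after the values were seen. Deprived library 1 was the highest of its diet for 8 of the 10 EMC genes, where it was the highest for 33.4% of all tested genes. Replete library 3 was the lowest of its diet for 7 of the 10, against 34.6% of all tested genes, but it was the highest for 2, EMC1 and EMC7, and its summed EMC level was not the lowest. The part of other differences between the libraries was not tested.

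The remaining genes of the calnexin cycle, which trim and restore the sugar that calnexin and calreticulin bind, did not pass. Of 9 genes tested, 0 were called in either direction, and their median log2 fold change was 0.028. The smallest p-value belonged to GCS2alpha, the catalytic chain of glucosidase II (edgeR, BH-adjusted p = 0.988). It was at 312, 296 and 293 CPM in the deprived and 281, 251 and 269 CPM in the replete libraries, without overlap. The diets did not overlap for 1 of the 9 genes, beside 10.9% of all tested genes. Uggt, the folding sensor that puts the sugar back, was at 117 ± 4.23 against 109 ± 11.5 CPM, and the mannosidase gene alpha-Man-Ib at 56.5 ± 1.37 against 52.8 ± 5.56 CPM. Neither passed.

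Of 7 genes of the oligosaccharyltransferase, which attaches the sugar chain in the first place, 0 were called, with a median log2 fold change of 0.044. OstDelta was at 81.2, 61.2 and 70.4 CPM in the deprived and 70.5, 60.9 and 56.9 CPM in the replete libraries. Ost48 was at 47.5 ± 5.24 against 42.7 ± 6.31 CPM and Ostgamma at 30.7 ± 3.87 against 29.1 ± 3.82 CPM in deprived and replete heads. Other ER chaperones were not called either, with 0 of 8 tested genes and a median log2 fold change of -0.068. Hsc70-3, the BiP protein of the fly, was at 933, 710 and 774 CPM in the deprived and 686, 866 and 780 CPM in the replete libraries. Sil1, a nucleotide exchange factor for BiP, was at 8.71 ± 2.33 against 10.7 ± 1.501 CPM, P58IPK, a BiP co-chaperone, at 63.3 ± 8.04 against 68.7 ± 7.58 CPM and Gp93, the ER form of Hsp90, at 231 ± 38.0 against 246 ± 30.3 CPM.

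Sensors and effectors of the unfolded protein response and of ER-associated degradation did not pass. Of 11 genes tested, 0 were called and 10 had a fold change above 1, beside 5225 of 10896 over all tested genes. Of the 11, 3 were higher by estimate at an unadjusted edgeR p under 0.05, beside 2.72% of all tested genes. Herp, a factor of ER-associated degradation, was at 76.0, 60.6 and 68.0 CPM in the deprived and 46.2, 52.6 and 46.9 CPM in the replete libraries, without overlap, and was 1.40-fold higher by estimate (edgeR, BH-adjusted p = 0.171). The sensor gene Ire1 was at 107 ± 5.51 against 84.0 ± 6.79 CPM, also without overlap (edgeR, BH-adjusted p = 0.312). The sensor kinase gene PEK was at 83.5 ± 2.82 against 65.9 ± 9.51 CPM, again without overlap (edgeR, BH-adjusted p = 0.591). The diets thus did not overlap for 3 of the 11 genes, beside 10.9% of all tested genes. The median log2 fold change of the list was 0.132.

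Of 8 tested genes that bring new proteins to the ER membrane, 0 were called, with a median log2 fold change of -0.156. The fold change was below 1 for 7, beside 5671 of 10896 over all tested genes. Of the 8, 1 was lower by estimate at an unadjusted edgeR p under 0.05, beside 2.41% of all tested genes. The diets did not overlap for 1, beside 10.9% of all tested genes. SrpRalpha, a chain of the receptor for the signal recognition particle, was at 48.0 ± 5.16 against 59.0 ± 2.10 CPM, without overlap (edgeR, BH-adjusted p = 0.801). SrpRbeta, the other chain, was at 16.3 ± 4.91 against 19.0 ± 2.15 CPM and the translocation factor gene Sec63 at 34.7 ± 4.82 against 38.5 ± 2.60 CPM.

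The 13 cyclophilin genes other than ninaA were all tested, and 0 were called, with a median log2 fold change of 0.050. Cypl was at 2.55 ± 0.507 against 1.66 ± 0.464 CPM, cyp33 at 4.34 ± 1.40 against 5.73 ± 1.02 CPM and Cyp40 at 13.4 ± 0.618 against 11.8 ± 1.93 CPM. Among 13 tested genes for later steps of rhodopsin maturation and transport, 0 were called, with a median of 0.056. The mannosidase gene alpha-Man-IIb was at 94.3 ± 6.87 against 107 ± 22.2 CPM, and Rip11, which acts with Rab11 in carrying rhodopsin to the rhabdomere, at 138 ± 3.47 against 154 ± 29.3 CPM. Mgat1, an enzyme of sugar chain processing, was at 24.1 ± 0.891 against 21.5 ± 1.53 CPM, without overlap. Such separation was seen for 1 of these 13 genes, beside 10.9% of all tested genes.

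The membrane proteins that these chaperones act on, or that resemble such clients, were read in the same fit. Of 10 genes, 1 was called lower and 0 higher, beside 0.0367% and 0.294% of all tested genes. Their median log2 fold change was -0.198. At an unadjusted edgeR p under 0.05, 3 were lower by estimate, beside 2.41% of all tested genes. The diets did not overlap for 3, beside 10.9% of all tested genes. The called gene was trpl, a light-activated channel, which fell 2.26-fold from 899 ± 184 to 397 ± 11.0 CPM (edgeR, BH-adjusted p = 0.00124). Rh3 was at 294 ± 21.8 against 391 ± 19.6 CPM and Rh2 at 67.1 ± 2.60 against 83.4 ± 5.84 CPM, each without overlap. Neither passed (edgeR, BH-adjusted p = 0.123 and 0.484).

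The genes whose pattern over the 6 libraries was nearest to that of Cnx99A were sought among 6177 tested genes of at least 10 CPM outside the lists. Nearness was the root mean square difference of log2 CPM after each gene was centred on its own mean. The nearest was ninaB, the carotenoid-cleaving enzyme, at a difference of 0.0743, then LysRS, the lysine transfer RNA synthetase, at 0.0946, and Bdp1, a subunit of the RNA polymerase III factor TFIIIB, at 0.105. CG5646 at 0.192 and mia at 0.209 followed. The first 4 were called higher in deprived heads, at 2.22-fold, 2.53-fold, 2.18-fold and 2.89-fold, and mia was not called (edgeR, BH-adjusted p = 0.113). Over all tested genes, 0.294% were called higher. Cnx99A itself rose in deprived heads, so a rise in its nearest genes follows from how they were chosen. All values come from the same 6 libraries, so this order describes these libraries only.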

How the data were processed

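The authors deposited whole-number read counts per gene, 1 table per library, with no normalization. The submitters' processing notes name STAR 2.5.3a, Subread 1.6.2, featureCounts, Trim Galore 0.4.2 and FastQC 0.11.5. The sources used here do not give the build, annotation, strand or multi-mapping settings. Of 17509 gene identifiers, 17389 matched the Ensembl release 115 annotation of BDGP6.54, which gave symbols, positions, exon lengths and exon overlaps. All counts were fitted in edgeR 4.0.16 (R 4.3.3) with filterByExpr (minimum count 10, minimum total 15), TMM, robust dispersion and diet as the only term, and BH adjustment over 10896 genes; standard errors and 95% intervals were derived from the F statistic. DESeq2 1.42.0 and limma-voom (limma 3.58.1) were alternatives. A count of 3 was 0.125 to 0.186 CPM, for counting error only. Replicates differed by more than counting noise (chi-square per degree of freedom 18.1 to 43.4).

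Members and gene lists were chosen with earlier results of these data known. Named genes were the members, the other EMC genes, up to 3 members of each further list with the smallest p and called ones, and the 5 genes nearest to Cnx99A. Outside that rule, Hsc70-3, Xport-A, Xport-B, some genes that share exon bases with the members or other EMC genes, and some cell type markers were also named. Older names were matched through RefSeq's gene table (Cyp40, Grp170, VGlut). Pdi and Get3 could not be matched by identifier and are not analysed here. The list of other ER chaperones includes CG1416, an Hsp90 co-chaperone of the cytosol. Sequences are not used here.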

Additional observations from a re-analysis of the deposited data

How the results depend on the processing

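The call of Cnx99A held in all 17 alternatives, and its log2 ratio to Calr, 1.299, was 1.24 to 1.36 without 1 library, that to ninaE 1.10 to 1.22. The other 8 tested members were called in none of 136 fits (log2 fold changes of -0.39 to 0.34, edgeR, DESeq2 or limma-voom BH-adjusted p of 0.691 or higher). Of these, 6 changed sign in 19 fits. EMC5 and EMC8-9 kept their sign in all 17 alternatives but were called in none, so no direction is read from any of the 8. With the clock covariate the log2 fold change was 0.31 for Cnx14D, 0.0067 for EMC1, -0.072 for EMC3, -0.097 for EMC6 and 0.079 for EMC7. For EMC1 it was 0.0073 with total count scaling and 0.028 after thinning to the smallest library. Leaving out 1 library gave -0.32 to 0.038 for Cnx14D, -0.13 to 0.042 for Calr, -0.10 to 0.051 for EMC1, -0.14 to 0.11 for EMC3, -0.042 to 0.19 for EMC6 and -0.17 to 0.032 for EMC7. Over all genes, 32 were called higher and 4 lower. DESeq2 called 56 and 23, the clock covariate left 12 higher, no filter gave 10 lower, and leaving out 1 library gave 18 to 32 higher and 2 to 7 lower. DESeq2 called 2 client genes lower. Over unshared exon bases, chosen after seeing the data, EMC5 was at 10.2, EMC8-9 at 22.5 and EMC4 at 19.6 CPM per kb in replete heads, and over its longest transcript EMC10 was at 32.2. The cause of these shifts was not tested. The scalings moved the median gene by at most 0.018 (log2).

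The replicate numbers were not taken to pair the libraries: deviations from the diet means correlated at -0.052, 0.029 and 0.18 for numbers 1, 2 and 3, and not every library correlated best with its own number. With the replicate block 30 genes were called, 24 of the 36 called without it among them, and Cnx99A was at a log2 fold change of 1.26. Among the members, intervals were widest for Cnx14D, EMC5 and EMC6, which had the fewest counts.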
